A study of Mus musculus with 20 samples.

Results

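The broad shared regions are stretches of DNase-accessible chromatin that every library of sorted mouse CD4 T cells covered at least in part and whose islands together spanned 8000 bp or more. They were selected on measured values, namely the presence of an island in each of 8 libraries and the length obtained when all islands that overlap or touch were merged. The rule kept 613 of 25755 merged regions. A further 9985 regions were also shared by all 8 libraries but shorter, so the broad ones made up 5.78% of the 10598 shared regions and 15% of their summed length.

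The cells came from draining lymph nodes of mice on a C57BL/6 background that carry T-bet-Cre and Rosa26-loxP-STOP-loxP-tdTomato, taken on day 16 after immunization with AS15 peptide in CFA and sorted as AS15 tetramer-positive. All 4 groups share these alleles, the immunization and the time point. Each group had 2 libraries. The Tfh Tomato+ group held CXCR5high PD1high cells with the tdTomato mark, and the Tfh Tomato- group held CXCR5high PD1high cells without it. The non-Tfh Tomato+ and non-Tfh Tomato- groups held CXCR5low PD1low cells with and without the mark. Tomato reports past or present activity of the T-bet promoter through Cre, so it marks a history of T-bet expression and not its level at the time of the sort. Nothing in the labels says that the 2 libraries of a group came from separate animals, so the p-values below measure the spread between these libraries, which may be technical. Age and the number of animals are not given in the sources used here. Cell identity was not checked in the islands, since no gene positions on their genome build were used.

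DNase I cuts DNA where nucleosomes are displaced, mostly at promoters and enhancers, and an island is a run of windows with more cuts than a background model allows. Most accessible sites are short. Wide stretches arise where several elements lie close together, as they do around genes that define a cell type, and T follicular helper (Tfh) cells and T-bet-expressing cells are known for different sets of such genes.

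The number of islands in a library was 14084 at the least, in Tfh Tomato+ replicate 1, and 21222 at the most, in non-Tfh Tomato+ replicate 2. Those islands covered 42.2 Mb in the library with the most and 32.9 Mb in non-Tfh Tomato+ replicate 2, which had the least. That library therefore had the most islands and the smallest covered length, with a median island of 1400 bp against 2400 bp in both Tfh Tomato+ libraries. Read totals are not in the island files, so the depth behind each island is unknown.

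The broad regions lay on 21 chromosomes and summed to 6.97 Mb. Chromosome 2 held 56, 6.57% of its shared regions, chromosome 1 held 55, 8.54%, and chromosome 11 held 51, 6.05%. Chromosome Y held 3 of its 6 shared regions and chromosome X 3 of 161. Their median merged length was 9800 bp, with quartiles of 8600 and 11800 bp, against a median of 3800 bp for the shorter shared regions. Of the 613, 319 were under 10000 bp, 52 reached 16000 bp, 22 reached 20000 bp and 10 reached 30000 bp. The length limit did not fall at a gap in the distribution. It kept 52 regions of exactly 8000 bp and left out 45 shared regions of 7800 bp.

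Regions nearest the limit had shares in overlapping ranges on both sides of it. The first 3 members at 8000 bp by position had mean covered shares, the percentage of merged length under an island averaged over the 8 libraries, of 55% at chr1:54978201-54986200, 55.3% at chr1:71143801-71151800 and 77.2% at chr1:85081001-85089000. The first 3 regions left out at 7800 bp had 50% at chr1:58767201-58775000, 62.8% at chr1:82826601-82834400 and 60.6% at chr1:107885001-107892800. All positions are 1-based on mm9.

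A broad merged region was seldom one broad island. The mean covered share had a median of 55.5% over the 613 regions and ran from 22.4% to 99.3%. Within one region the lowest and highest library differed by a median of 50 percentage points, and the SD over the 8 libraries had a median of 17.2 points. Only 107 regions, 17.5%, were covered to at least 50% in every library, while 131 regions, 21.4%, were covered to less than 20% in at least one. In 45 regions at least 1 library covered the whole merged length. A single island of 8000 bp or more was present in 101 of the 613 regions in Tfh Tomato+ replicate 1, the highest number of any library, and in 27 in non-Tfh Tomato+ replicate 2, the lowest.

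**Figure D1:**
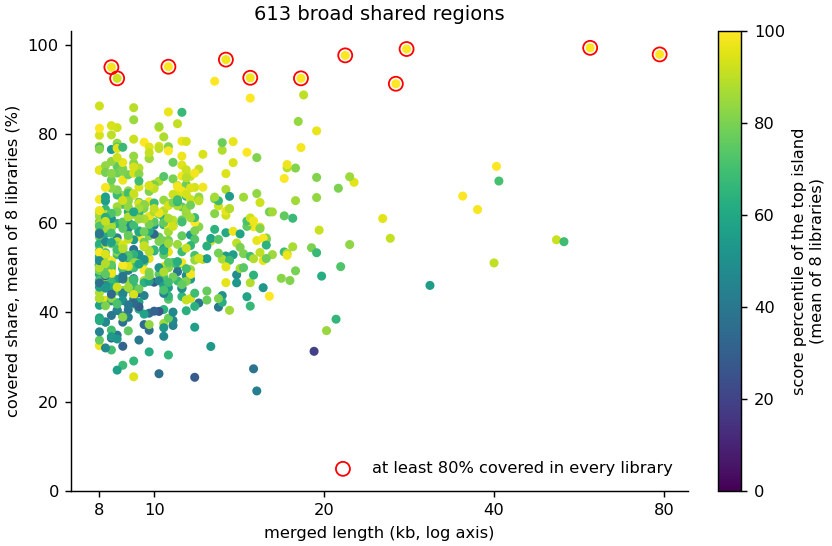
Each point is one of the 613 broad shared regions, with merged length in kb on a log axis, the covered share as the mean of 8 libraries in percent, and colour for the mean score percentile of its highest-scoring island within each library. Red rings mark the 11 regions covered to at least 80% in every library, which lie at the top of the plot over lengths from 8400 to 78600 bp.

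Longer regions were somewhat more fully covered and held more islands, as the plot of covered share against length shows. The 319 regions of 8000 to under 10000 bp had a median share of 53.4% and a median of 1.5 islands per library. The 22 regions of 20000 bp or more had 64.5% and 3.12 islands. Over the 613 regions, length and covered share had a Spearman correlation of 0.15, and length and score percentile one of 0.22. These are descriptions across regions that share the same 8 libraries, and islands enter both quantities of each pair.

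Within the broad regions, 34835 bins of 200 bp carried an island in at least one library. All 8 libraries covered 24.9% of those bins, and exactly 1 library covered 17.1%. In the shorter shared regions the corresponding values were 29.9% and 21.2% of 196823 bins, so the broad regions held more bins at the intermediate counts. Any single library can lengthen a merged region, so the rule itself favours regions widened by 1 or a few libraries, and these values are given as a description.

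**Figure D2:**
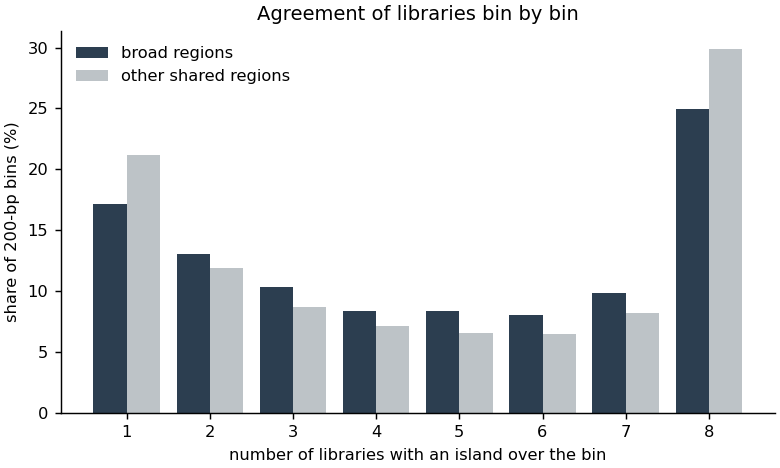
Bars give the share of 200-bp bins, in percent, that have an island in 1 to 8 libraries, dark for the 613 broad regions and grey for the 9985 shorter shared regions. In both sets the tallest bars stand at 8 libraries, 24.9% and 29.9%, and the next at 1 library, 17.1% and 21.2%.

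The bins covered by all 8 libraries form the core of a region, and in the broad regions the core was often in several pieces. A median of 20% of the merged length was core, against 29.4% in the shorter shared regions. One core segment was found in 297 broad regions, 48.5%, 2 segments in 201, 32.8%, and 3 or more in 91, 14.8%. Of the shorter shared regions, 95.1% had a single segment and 0.19% had 3 or more. The longest core segment had a median of 1600 bp in the broad regions and 1000 bp in the shorter ones. In 24 broad regions, 3.92%, no bin was covered by all libraries although each library had an island somewhere in the region. The broad regions were chosen on merged length, which is also the denominator of the core percentage. A longer region also has room for more segments, so these contrasts with the shorter regions are a description and not a test.

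The pieces increased with length while the core percentage did not. Regions of 8000 to under 10000 bp had a median of 1 segment and 19.6% core, and regions of 20000 bp or more had 2.5 segments and 20.2% core. The longest segment went from a median of 1400 bp to 2900 bp between these length classes. The region with the most segments, 7, was chr1:85239401-85257400, 18000 bp long and 50% core, a region chosen after its values were seen.

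Broad regions held higher-scoring islands than shorter shared ones, but not denser ones, in each of the 8 libraries. The score is the authors' own value for each island and is used here only to rank islands within their library, where percentile 100 is the highest. The best island of a broad region had a median percentile between 77.0 in Tfh Tomato+ replicate 1 and 84.8 in non-Tfh Tomato+ replicate 2, against 60.6 and 72.3 in the shorter shared regions of these libraries. Score divided by island length gave the opposite order. Its median percentile was 40.4 in Tfh Tomato+ replicate 1 and 56.0 in non-Tfh Tomato+ replicate 2 for the broad regions, against 60.7 and 66.1 for the shorter ones. Length went into choosing the regions and a longer island can gather a higher score, so neither order is a test.

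The top of each library's list was partly made of broad regions. Of the 10 highest-scoring islands, 5 lay in broad regions in every library except non-Tfh Tomato+ replicate 2, where 3 did. Of the 100 highest, between 20 and 27 did, and of the 1000 highest, between 111 and 149. Over all islands of a library, between 5.73% and 6.62% lay in broad regions. Since a longer island can gather a higher score, these counts are a description. In 16 regions an island was within the top 1% in all 8 libraries. At the other end, 6 regions held only islands below their library's median score in all libraries, and 218 did so in at least one. Covered share and score percentile had a Spearman correlation of 0.55 over the 613 regions, and covered share and score per bp one of 0.10.

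A small set of 11 regions was covered almost completely by every library, at 80% or more in each. No mm9 sequence was used, so whether these stretches are repeated sequence was not tested. They hold at most 3 islands in any library, their median core is 89% of the merged length, and their best islands never fell below percentile 81.6. These regions sit in few places. On chromosome 1 they are chr1:90108001-90167200, chr1:90168001-90189800 and chr1:90190601-90208800, which follow each other with gaps of a few bins. Those on chromosome Y are chrY:2787001-2797600, chrY:2847401-2874200 and chrY:2874601-2902600. Chromosome 8 has chr8:19934201-19949000 and chr8:19979001-19987600, and the remaining ones are chr11:3021601-3100200, chr13:120275801-120284200 and chr17:13732801-13746200.

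The longest region of all, chr11:3021601-3100200, spans 78600 bp and held the top-ranked island in every library. Its covered share was 97.7% and 97.5% in the Tfh Tomato+ libraries, 96.4% and 98% in Tfh Tomato-, 97.5% and 96.9% in non-Tfh Tomato+, and 99.2% in both non-Tfh Tomato- libraries. All libraries are high and the groups span less than 3 percentage points. Its score per bp was also near the top, at a mean percentile of 99.8.

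The second longest, chr1:90108001-90167200 with 59200 bp, was as full but less dense. Its shares were 99.3% and 99.7% in Tfh Tomato+, 100% and 99.3% in Tfh Tomato-, 99.7% and 98.6% in non-Tfh Tomato+, and 99% and 98.6% in non-Tfh Tomato-. Score per bp reached a mean percentile of 56.3. The mean share of 99.3% was the highest of any broad region, followed by chrY:2874601-2902600 with a lowest library at 97.9%, chr11:3021601-3100200, chr1:90168001-90189800 with a lowest at 96.3% and chr17:13732801-13746200 with a lowest at 89.6%.

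The other 6 of the 8 longest regions were covered unevenly. Of these, chr11:96957001-96997400, 40400 bp long, had its best island at ranks between 16 and 159 and a core of 37.6% in 5 segments. Its shares were 73.8% and 73.3% in Tfh Tomato+, 95% and 64.9% in Tfh Tomato-, 92.6% and 67.3% in non-Tfh Tomato+, and 58.4% and 56.4% in non-Tfh Tomato-. Both non-Tfh Tomato- libraries are the lowest, and the other 3 groups overlap. The neighbouring chr11:97000601-97040600, 40000 bp, had its lowest share, 27%, in non-Tfh Tomato+ replicate 2 and its highest, 74.5%, in Tfh Tomato+ replicate 1.

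Chromosome 14 contributed 3 of the 8 longest regions within about the same stretch. The longest, chr14:70034201-70087400 with 53200 bp, had no core bin. Its shares were 51.9% and 64.7% in Tfh Tomato+, 90.6% and 61.3% in Tfh Tomato-, 50.8% and 20.7% in non-Tfh Tomato+, and 48.9% and 57.9% in non-Tfh Tomato-. The highest and the lowest library each have a replicate near the middle of the range, so the group means say little here. In score per bp this region was among the thinnest, at a mean percentile of 1.70. The second, chr14:69925201-69976800, showed the same high library at 83.3% and the same low library at 20.2%.

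The third, chr14:69870801-69908200 with 37400 bp, differed in score. Its best island ranked between 56 and 301 in every library. Shares were 70.6% and 73.3% in Tfh Tomato+, 69% and 63.6% in Tfh Tomato-, 80.2% and 29.4% in non-Tfh Tomato+, and 71.1% and 47.1% in non-Tfh Tomato-. Its 2 non-Tfh Tomato+ libraries stand further apart than any of the group means.

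The last of the 8, chr3:25415801-25456600 with 40800 bp, varied strongly between replicates. Tfh Tomato+ replicate 1 covered 9.80% and replicate 2 covered 100% with a single island. The other groups had 68.1% and 91.7% in Tfh Tomato-, 63.2% and 52% in non-Tfh Tomato+, and 83.3% and 87.3% in non-Tfh Tomato-. The percentile of its best island followed, from 12.5 in Tfh Tomato+ replicate 1 to 99.8 in replicate 2. It had no core bin.

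**Figure D3:**
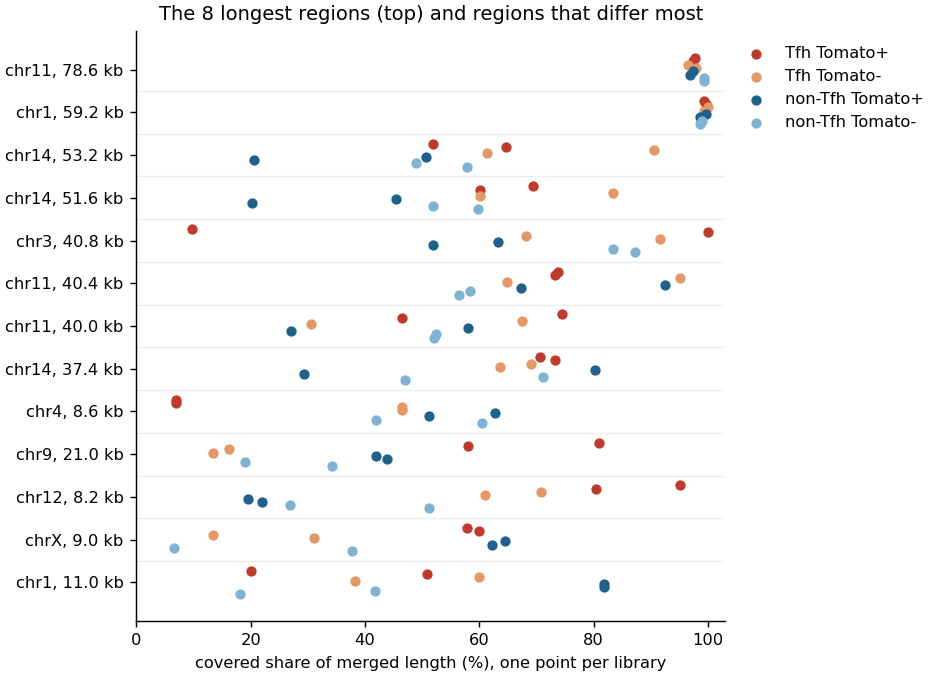
Points give the covered share of merged length in percent, one point per library and coloured by group, for the 8 longest regions and below them the regions with the largest or best-supported differences between groups. The longest 2 have all points above 96%, while the chromosome 3 region of 40.8 kb runs from 9.80% to 100% within the Tfh Tomato+ group.

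At the low end of covered share, a few libraries covered far more of the merged length than the rest. The smallest mean share was at chr3:84457001-84472200, where shares ran from 11.8% in 3 libraries to 40.8% in Tfh Tomato- replicate 1. In chr4:119951001-119962800, Tfh Tomato+ replicate 1 covered 84.7% and the other libraries between 8.47% and 35.6%. Likewise, chr6:125220201-125230400 had 80.4% in Tfh Tomato+ replicate 1 and a lowest value of 5.88%, and chr7:51609401-51618000 had 79.1% in Tfh Tomato- replicate 1 and a lowest of 9.30%. The widest library thus differed from region to region. At chr6:136465401-136474600 the best island scored high, with a mean percentile of 95.2, although non-Tfh Tomato+ replicate 2 covered 67.4% and 6 libraries covered between 13% and 17.4%.

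Some broad regions were neighbours. Joined at gaps of up to 10000 bp, 56 regions, 9.14%, formed 26 clusters, of which 23 were pairs. The largest cluster by number was chr9:32499401-32561400 with 4 regions. Another, chr1:90108001-90208800, is the fully covered run of 3 regions described above. The third, chr11:96957001-97057200, held 3 regions with mean shares from 43.6% to 72.7%, and the last of them, chr11:97041201-97057200, ran from 20% to 66.2% over the libraries.

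The comparison of the 4 groups asks whether the subset, the Tomato mark or both go with a wider opening of the same regions. Before any scaling, the broad regions were widest in the Tfh Tomato+ libraries. Their median covered share was 65.2% and 69% there, 57% and 54.2% in Tfh Tomato-, 60% and 48.9% in non-Tfh Tomato+, and 50.9% and 56.1% in non-Tfh Tomato-. As means of the library medians this is 67.1% ± 2.71 (SD, n = 2), 55.6% ± 1.98, 54.4% ± 7.86 and 53.5% ± 3.69. Both Tfh Tomato+ libraries lie above the other 6, and the other 3 groups overlap.

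The shorter shared regions moved in nearly the same way. Their median share was 66.7% and 68.4% in Tfh Tomato+, 59.1% and 57.6% in Tfh Tomato-, 56.2% and 46.2% in non-Tfh Tomato+, and 54.5% and 61.9% in non-Tfh Tomato-. Wider islands in Tfh Tomato+ libraries were thus found in the shared regions in general. Only in the 2 non-Tfh Tomato+ libraries and in Tfh Tomato+ replicate 2 was the median of the broad regions above that of the shorter ones.

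**Figure D4:**
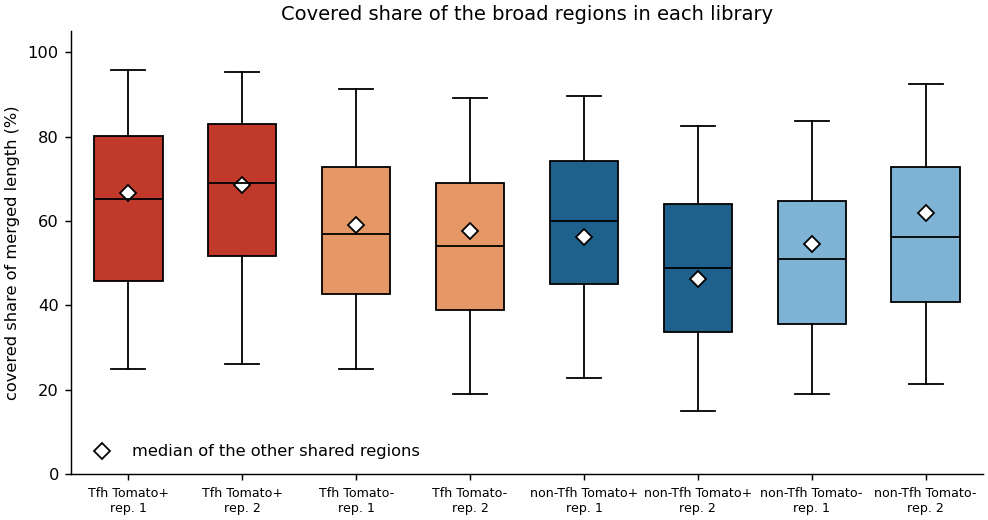
Boxes show the covered share in percent of the 613 broad regions in each of the 8 libraries (line, median; box, quartiles; whiskers, 5th and 95th percentiles; colours, groups), and white diamonds the median of the 9985 shorter shared regions. Both Tfh Tomato+ medians, 65.2% and 69%, are the highest, and the diamonds follow the boxes from library to library.

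The broad regions took a similar part of each library's covered length. It was 11.4% and 11.2% in Tfh Tomato+, 9.82% and 10.2% in Tfh Tomato-, 10.6% in both non-Tfh Tomato+ libraries, and 10.3% and 11.1% in non-Tfh Tomato-. The group means were 11.3% ± 0.18 (SD, n = 2), 10.02% ± 0.29, 10.6% ± 0.05 and 10.7% ± 0.53. Tfh Tomato+ was highest and Tfh Tomato- lowest without overlap between them, and the difference is about 1 percentage point of covered length. No test was made, because the regions were chosen on covered length.

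How a region was divided into islands also differed between libraries. In Tfh Tomato+ replicate 1, 345 of the 613 regions, 56.3%, consisted of a single island, and in replicate 2 there were 325. Tfh Tomato- had 260 and 254, non-Tfh Tomato+ 177 and 161, and non-Tfh Tomato- 232 and 308. The mean number of islands per region was 1.52 and 1.57 in Tfh Tomato+, 1.75 and 1.76 in Tfh Tomato-, 2.05 and 2.18 in non-Tfh Tomato+, and 1.84 and 1.61 in non-Tfh Tomato-. Both Tfh Tomato+ libraries had the fewest islands per region and both non-Tfh Tomato+ libraries the most. The total island number of a library moves with this count, being lowest in Tfh Tomato+ replicate 1 and highest in both non-Tfh Tomato+ libraries, and its part in the division of these regions was not tested.

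The widest island of a region had a median of 5000 and 5400 bp in Tfh Tomato+, 4200 and 3800 bp in Tfh Tomato-, 4000 and 3000 bp in non-Tfh Tomato+, and 3400 and 4200 bp in non-Tfh Tomato-. In the shorter shared regions the widest island ranged from 1600 to 2400 bp, again lowest in non-Tfh Tomato+ replicate 2 and highest in the Tfh Tomato+ libraries. The outer limits of the merged regions came most often from Tfh Tomato+ libraries. Their islands reached an outer edge in 250 and 285 regions, against 179 and 135 in Tfh Tomato-, 188 and 121 in non-Tfh Tomato+, and 143 and 188 in non-Tfh Tomato-. Of the bins covered by only 1 library, 21.8% and 27.2% belonged to the Tfh Tomato+ libraries. Neither the edge counts nor these percentages were set beside values of the shorter shared regions.

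Score rank did not follow width. The median percentile of the best island was 77.0 and 80.9 in Tfh Tomato+, 82.0 and 79.3 in Tfh Tomato-, 84.5 and 84.8 in non-Tfh Tomato+, and 80.2 and 77.4 in non-Tfh Tomato-. The 2 non-Tfh Tomato+ libraries stand above the rest. Their lists are also the longest, and ranks from lists of different lengths show no change in accessibility.

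Regions in which one group led depended on the scaling of the libraries. On the covered share as measured, both Tfh Tomato+ libraries were above the other 6 in 67 of the 613 regions, 10.9%, against 8.84% of all shared regions. The other groups led in 9 regions for Tfh Tomato- (1.84% of all shared regions), 16 for non-Tfh Tomato+ (0.953%) and 13 for non-Tfh Tomato- (2.26%). After each library was centred on its median log2 covered length, non-Tfh Tomato+ led instead, in 59 regions or 9.62%, against 5.02% of all shared regions. Tfh Tomato+ then led in 24 regions, Tfh Tomato- in 10 and non-Tfh Tomato- in 16, where the percentages over all shared regions were 4.33%, 2.09% and 3.5%. The leading group thus flips with the centring.

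Covered length was then tested with limma on the log2 scale, centred in each library, over all 10598 shared regions and with one mean per group. A value of 1 in these differences is a doubling of covered length. At a Benjamini-Hochberg adjusted p below 0.05, no region differed between Tfh and non-Tfh, between Tomato+ and Tomato-, or in the interaction, which asks whether the Tomato difference is the same in both subsets (0.0% of regions in each). None of the 613 broad regions passed either. At an unadjusted p below 0.05, limma gave 108 of the 613 for Tfh minus non-Tfh, 17.6%, against 7.47% of all shared regions, with 45 higher and 63 lower in Tfh. Without non-Tfh Tomato+ replicate 2 this count was 69 of the 613, and 640 of all shared regions. For Tomato+ minus Tomato- it gave 79, 12.9%, against 6.05%, with 60 higher and 19 lower in Tomato+. Over all shared regions, 405 were higher and 387 lower in Tfh, and 382 were higher and 259 lower in Tomato+. The interaction gave 48, 7.83%, against 5.47%. The broad regions were chosen on merged island length, and covered length is what was tested in them. Their larger percentages than over all shared regions are therefore a description and not a test.

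These unadjusted counts moved with the scale. On the covered share in percent without a log they were 50, 30 and 18 of the 613 in limma, against 6.83%, 5.12% and 4.83% of all shared regions, that is 8.16%, 4.89% and 2.94% of the broad ones. Without centring they were 99, 70 and 52, or 16.2%, 11.4% and 8.48% of the broad regions, against 9.63%, 5.37% and 7.38%. The Tfh counts, mostly lower with centring on both the log2 and the percent scale (11 higher and 39 lower on the latter), turned to 84 higher and 15 lower without centring. Leaving the libraries uncentred moved the median difference of all shared regions to 0.19 for Tfh minus non-Tfh and to 0.34 for the interaction, from -0.02 and 0.07. No direction of the subset difference was thus common to the 3 scales.

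The median difference of the broad regions was -0.05 for Tfh minus non-Tfh, with 269 above 0 and 344 below, beside -0.02 over all shared regions. Without centring it was 0.16, with 412 above 0 and 201 below, beside 0.19 over all shared regions. The median was 0.10 for Tomato+ minus Tomato-, with 385 above 0 and 228 below, beside 0.02 over all shared regions. It remained above 0 without centring (0.09) and on the percent scale (2.47 percentage points). On the percent scale the median over all shared regions was -0.17 percentage points. At an unadjusted p below 0.05 in limma, 18 broad regions were then higher and 12 lower in Tomato+. Over all shared regions these counts were 217 and 326. The median standard error was 0.25 for the broad regions and 0.30 for all, and the median absolute subset difference of the broad regions, 0.27, was about the size of that error.

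**Figure D5:**
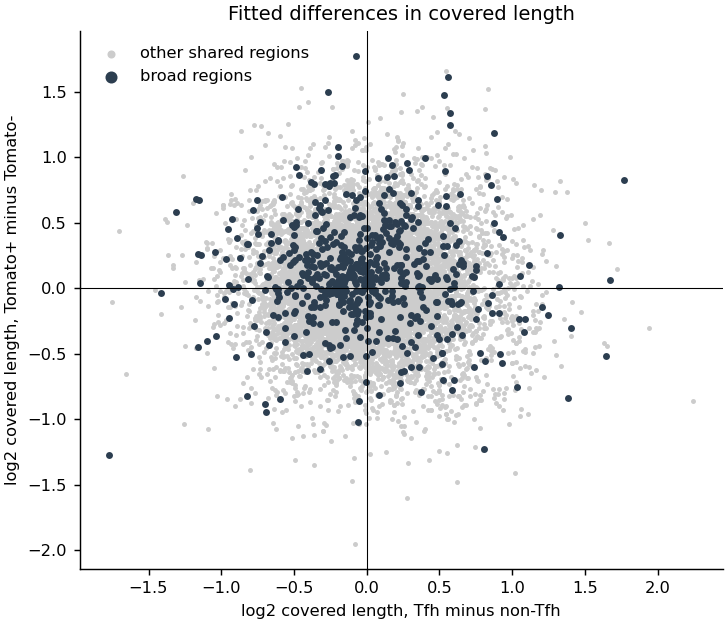
Each point is a shared region, dark for the 613 broad ones and grey for the shorter ones, with the limma difference in log2 covered length for Tfh minus non-Tfh on the horizontal axis and Tomato+ minus Tomato- on the vertical axis. The dark points centre near 0 on both axes, at medians of -0.05 and 0.10, inside the spread of the grey points.

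Groups seldom separated completely. On the centred log2 scale all 4 Tfh libraries were above all 4 non-Tfh libraries in 17 of the 613 regions, against 1.55% of all shared regions, and the reverse held in 29, against 2.23%. All 4 Tomato+ libraries were above all Tomato- libraries in 20, against 1.76%, and below them in 6, against 1.1%. As percentages of the broad regions these are 2.77%, 4.73%, 3.26% and 0.98%. Single bins that separated the groups were rarer still. Within the broad regions 115 bins were covered in all 4 Tfh and in no non-Tfh library, 0.33% against 0.316% of all bins in shared regions, and 37 the other way, 0.11% against 0.0574%. For the Tomato mark there were 70 bins, 0.20% against 0.104%, and 25, 0.07% against 0.0635%.

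The largest subset difference in mean covered share, taken without centring, was at chr12:17727401-17735600, a region of 8200 bp. With each library centred, the difference there was 38.7 percentage points, and chr14:122345201-122366400 had a larger one of -42.4. The place of the largest difference thus depends on the scaling. Its shares were 95.1% and 80.5% in Tfh Tomato+, 70.7% and 61% in Tfh Tomato-, 19.5% and 22% in non-Tfh Tomato+, and 26.8% and 51.2% in non-Tfh Tomato-. All 4 Tfh libraries lie above all 4 non-Tfh libraries. The log2 difference was 1.25 ± 0.24 (SE), with an adjusted p of 0.424 in limma, so it did not pass over all regions.

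For the Tomato mark the largest difference in mean covered share without centring was at chrX:45489201-45498200, 9000 bp long. Both Tfh Tomato+ libraries had 57.8% and 60%, and non-Tfh Tomato+ had 64.4% and 62.2%, with close replicates. Tomato- libraries had 13.3% and 31.1% in Tfh and 6.67% and 37.8% in non-Tfh. The 4 Tomato+ values do not overlap the 4 Tomato- values in either subset. The log2 difference was 1.77 ± 0.46 (SE), with an adjusted p of 0.689 in limma. Without non-Tfh Tomato- replicate 1, the lowest library, it was 1.18.

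The largest interaction in mean covered share without centring was at chr1:140066201-140077200, 11000 bp long. Non-Tfh Tomato+ had 81.8% in both libraries and non-Tfh Tomato- 41.8% and 18.2%, while Tfh Tomato+ had 20% and 50.9% and Tfh Tomato- 60% and 38.2%. The Tomato groups are apart in non-Tfh cells and overlap in Tfh cells. The log2 interaction was -2.42 ± 0.72 (SE), with an adjusted p of 0.824 in limma.

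Further regions were singled out after their values were seen, because their p was the smallest. At chr4:59271001-59279600, 8600 bp long, both Tfh Tomato+ libraries covered 6.98%. Tfh Tomato- covered 46.5% in both libraries, non-Tfh Tomato+ 62.8% and 51.2%, and non-Tfh Tomato- 41.9% and 60.5%. The Tfh Tomato+ group alone was low, without overlap with the other 3, while those 3 overlap. In limma the log2 difference was -1.77 ± 0.23 (SE) for Tfh minus non-Tfh with an adjusted p of 0.109, and -3.18 ± 0.45 for the interaction with an adjusted p of 0.289. The Tomato difference was -1.27 ± 0.23, with an adjusted p of 0.550 in limma. These log2 differences rest on the small Tfh Tomato+ values. On the percent scale the adjusted p in limma was 0.617 for the subset, 0.938 for Tomato and 0.972 for the interaction. With regions present in at least 4 libraries tested, the subset difference was -1.60 with an adjusted p of 0.0424 in limma. Adjusted p under the alternatives tried ranged up to 0.797 in limma for this difference.

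At chr9:40910801-40931800, 21000 bp long, Tfh Tomato+ covered 81% and 58.1%, and Tfh Tomato- 16.2% and 13.3%. Non-Tfh Tomato+ covered 41.9% and 43.8%, and non-Tfh Tomato- 19% and 34.3%. Tomato+ libraries are above Tomato- libraries in both subsets. The log2 difference for Tomato was 1.49 ± 0.22 (SE), with an adjusted p of 0.355 in limma, the smallest of that comparison.

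Chromosome 9 also held neighbouring broad regions whose fitted subset differences had opposite signs. In chr9:32418801-32430600, 11800 bp, Tfh Tomato+ covered 45.8% and 49.2% and Tfh Tomato- 74.6% and 66.1%, against 28.8% and 20.3% in non-Tfh Tomato+ and 23.7% and 22% in non-Tfh Tomato-. All Tfh libraries are above all non-Tfh libraries, and the log2 difference was 1.09 ± 0.20 (SE) with an adjusted p of 0.424 in limma. It passed with regions present in at least 4 libraries, at 1.02 and an adjusted p of 0.0446 in limma, the lowest of the alternatives, which ranged up to 0.797.

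The 4 regions of the nearby cluster did not share that direction. In chr9:32527801-32547200, 19400 bp, Tfh Tomato+ covered 16.5% and 59.8% and Tfh Tomato- 44.3% and 34%, against 76.3% in both non-Tfh Tomato+ libraries and 50.5% and 69.1% in non-Tfh Tomato-. The groups overlap through Tfh Tomato+ replicate 2, and the log2 difference was -1.15 ± 0.33 (SE) with an adjusted p of 0.572 in limma. After islands below the library median score were left out, the corresponding region chr9:32529001-32545000 gave -1.85 with an adjusted p of 0.0184 in limma, in a range up to 0.797 over the alternatives. Without Tfh Tomato+ replicate 1 the difference of the whole region was -0.68. In chr9:32499401-32512400, 13000 bp, 7 libraries covered between 55.4% and 89.2% and Tfh Tomato- replicate 2 covered 10.8%. Its difference was -1.15 ± 0.45 (SE) with an adjusted p of 0.637 in limma, and -1.83 with an adjusted p of 0.0476 without Tfh Tomato- replicate 1, so the call there rests on a single low library. Without that low library, Tfh Tomato- replicate 2, the difference was -0.47. The adjusted p in limma reached 0.801 in another alternative. The remaining 2 regions, chr9:32512801-32527000 and chr9:32550001-32561400, ran from 33.8% to 83.1% and from 26.3% to 94.7%, with overlapping groups.

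A last pair of regions was named for being called under 1 alternative each. At chr14:122345201-122366400, 21200 bp long, Tfh Tomato+ covered 46.2% and 52.8% and Tfh Tomato- 66% and 37.7%, against 88.7% and 71.7% in non-Tfh Tomato+ and 90.6% and 88.7% in non-Tfh Tomato-. All non-Tfh libraries are above all Tfh libraries. The log2 difference was -0.97 ± 0.19 (SE) with an adjusted p of 0.424 in limma, and -2.38 with an adjusted p of 0.0292 after low-scoring islands were left out. Over the alternatives the adjusted p in limma went up to 0.797. At chr3:25415801-25456600, whose values stand above, the Tomato difference was -0.94 with an adjusted p of 0.875 in limma. Without Tfh Tomato+ replicate 2, the library that covered all of it, the difference was -1.78 with an adjusted p of 0.0155 in limma, against up to 0.996 in the other alternatives. Without Tfh Tomato+ replicate 1 the difference was -0.11, so its size rests on which of these 2 libraries is kept.

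Libraries of one group resembled each other in these regions only slightly more than libraries of different groups. The Jaccard index, the number of bins covered by both libraries as a percentage of those covered by either, averaged 59.8% for the 4 pairs of replicates (57.7% to 61.3%). It averaged 59% for the 8 pairs of the same subset and different Tomato state, 58.2% for the 8 pairs of different subset and same Tomato state, and 57.4% for the 8 pairs that differ in both. The ranges overlap. In the shorter shared regions the means were 63.1%, 62.3%, 61.2% and 61.7% in the same order. Each of these is above the mean of the broad regions for that kind of pair. Merged length counts islands from any library, so the length rule itself favours regions in which libraries cover different parts. The lower values in the broad regions are therefore a description and not a test.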

How the data were processed

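DNase islands of 8 libraries from sorted mouse lymph node CD4 T cells were used, 2 in each of 4 groups taken from the sample titles. The deposited files list each island's start, end and score, a value the authors computed. Their names record that duplicate reads were removed and that each library was called by itself with 200-bp windows, gaps up to 400 bp and an E-value of 1. The submitters' processing notes name CASAVA 2.18, Bowtie2, SICER 1.1, edgeR and build mm9. The sources used here do not say how reads with several matching places were treated.

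Islands that overlap or touch were merged. Covered length is the length under islands in a library, and covered share is that length as a percentage of merged length. Log2 covered length was centred on each library's median over 10598 shared regions and tested in limma 3.58.1 (trend, R 4.3.3), with one mean per group and Benjamini-Hochberg adjusted p below 0.05. The script was tested on simulated data. Tables were made with Python 3.11.15 and pandas 2.3.3. Read depth is unknown, so the precision of single islands is not given.

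Regions named by rule were the 8 longest, the 5 most and 5 least covered, and 3 on each side of the length limit. The largest difference per comparison in covered share without centring was also named. Others were named after their values were seen. Regions and comparisons were chosen with earlier results of these data known. Alternatives were a replicate block, no centring, percent without log, a stricter score limit, regions in at least 4 libraries (log2 of covered length plus 200 bp), other length and joining limits, and leaving out each library. No gene positions or sequence on mm9 were used, so no gene is named and the 12 RNA libraries were not analysed here. The planned permutation test of single called regions was not run, since no region was called.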

Additional observations from a re-analysis of the deposited data

How the results depend on the processing

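The count of 0 called regions held for Tfh minus non-Tfh, Tomato+ minus Tomato- and the interaction in limma without centring and on the percent scale. For Tfh minus non-Tfh, 3 regions were called, 2 of them broad, after islands below each library's median score were left out (5325 regions tested), and 121, with 67 higher and 54 lower in Tfh and 2 of them broad, with regions present in at least 4 libraries (16207 tested). Leaving out each library gave 0 to 1 calls for Tfh minus non-Tfh and 0 to 1 for Tomato+ minus Tomato-, over all regions and over the broad ones alike. The call for the subset appeared without Tfh Tomato- replicate 1 and that for Tomato without Tfh Tomato+ replicate 2. The interaction had 0 calls in each of these settings. The cause was not tested. No fitted difference given in the text for a single region changed sign under the alternatives that gave it a value. The stricter score limit gave a value only for chr14:122345201-122366400, chr9:32527801-32547200 and chr9:32499401-32512400. The other single regions with a fitted difference no longer overlapped a shared region there and could not be judged. The median subset difference of the broad regions changed sign, from -0.05 to 0.16 without centring. Their median interaction changed sign too, from -0.07 to 0.20, beside 0.07 and 0.34 over all shared regions. On the percent scale the median interaction was -7.39 percentage points, beside -1.59 over all shared regions.

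With the replicate number as a replicate block, limma called 0 regions in each comparison. At an unadjusted p below 0.05 in limma there were 113, 84 and 53 of the 613 broad regions. Over all 10598 shared regions these counts were 770, 645 and 579. The deviations of same-numbered libraries correlated between -0.04 and 0.05 over 6 pairs of groups, so no shared replicate effect was visible in covered length. Whether same-numbered libraries came from the same animals or sort was not tested.

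The number of broad regions was 1564 at 6000 bp, 294 at 10000 bp, 316 with the stricter score limit and 107 where at least 50% had to be covered in every library. Joining regions up to 400 bp apart gave 714, and leaving out each library 477 to 595. The median over libraries of the covered length in broad regions was 10.6%, 9.49% with the stricter regions and 10.1% without those within 4 Mb of the chromosome start. Unknown depth limits all comparisons of width.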
